A study of Mus musculus with 30 samples.

Results

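The comparison of 24 with 4 weeks in glomeruli of ob/ob mice rests on 7 of the 30 arrays of the study, 4 from animals aged 24 weeks and 3 from animals aged 4 weeks. They were taken by the strain and age in the sample labels, and 24099 genes were compared. All 7 animals were females of the strain BTBR ob/ob, and no treatment is labelled. These mice carry the obese mutation of the leptin gene at both ages, so by the labels age is what differs between the groups. Control quality and tissue signal also differed in part, as given below, and cannot be fully told apart from age. The study as a whole took kidneys of BTBR wild-type and BTBR ob/ob females at 4, 8, 16 and 24 weeks, pressed them through steel sieves to collect glomeruli and hybridised the RNA to Affymetrix arrays, 1 animal to an array by the labels. The wild-type arrays at 4 weeks (3) and 24 weeks (4) are used here for the same change without the mutation.

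Leptin is a hormone of fat cells that limits food intake, and mice without it become obese. On the BTBR background they also become diabetic, and the strain is used as a model of diabetic kidney disease, in which podocytes are lost and the matrix of the glomerulus expands. The glomerulus is the filter of the kidney: podocytes, fenestrated endothelium and mesangial cells make up the filter, and the proximal tubule that follows takes back sugar, amino acids and phosphate and makes active vitamin D.

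The deposited values are log2 brightness, and every difference here is a difference of such values. They reach higher than a scanner can read, after a stretch that no source used here describes, so a difference of 1 is not read as a doubling. Array values are listed in replicate order, 3 at 4 weeks and 4 at 24 weeks. Adjusted p values are those of limma over all genes, 0.05 is the threshold, and ± after a difference is its standard error.

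Replicate 3 was the 24 week array with the best controls. The separation of exon from intron control probes, the chance that an exon control is brighter than an intron control, was 0.778, 0.783, 0.861 and 0.762 in the 4 arrays at 24 weeks. It was 0.826, 0.850 and 0.854 at 4 weeks, and the 27 arrays other than 24 week replicates 1, 2 and 4 lay between 0.826 and 0.886. The mean was 0.796 ± 0.044 (SD, n = 4) against 0.843 ± 0.015 (SD, n = 3). An exact two-sided permutation test of the 2 ages gave p = 0.229, where the design can go no lower than 0.0571. That test pools replicate 3 with replicates 1, 2 and 4, which these same values set apart. It cannot tell whether those 3 arrays differ from the others, and no conclusion is drawn from it. Because replicates 1, 2 and 4 lay below the other 27 arrays, results that turn on single arrays are given with the value of replicate 3. Genes that passed both over all 4 arrays and with replicate 3 as the one 24 week array come first. That second fit has no spread of its own at 24 weeks and takes it from the other groups.

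The samples held tubule beside glomeruli. Of 24 proximal tubule genes 22 were measured, and their mean was 15.50 to 15.63 at 4 weeks and 15.04 to 15.38 at 24 weeks. In which cells a gene changed was not tested, and in bulk RNA fewer cells of a type and less RNA per cell cannot be told apart.

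From 4 to 24 weeks 2669 of 24099 genes passed the test (11.1%), 825 higher (3.42%) and 1844 lower (7.65%). The shares of 3.42% and 7.65% are the background for the list counts given below. In 1894 of the 2669 genes (7.86% of all tested) replicate 3 also lay beyond all 3 of the 4 week values on the same side. The 24 and 4 week values did not overlap in 3862 of the 24099 genes (16.0%), whether or not they passed the test. With replicate 3 as the one 24 week array 136 genes passed (0.564%), and 67 passed both fits (0.278%), 36 higher (0.149%) and 31 lower (0.129%). The median absolute change of the 36 was 1.15 and of the 31 was 0.80. The split into higher and lower depended on the scaling: cyclic loess gave 1327 higher and 975 lower, and moved the median difference of all genes from -0.04 to -0.0002. The count fell to 817 without 4 week replicate 2, to 697 without 4 week replicate 3, to 1190 without 24 week replicate 2 and to 1319 and 1481 without 24 week replicates 4 and 1, and it rose to 5745 without 24 week replicate 3. With only the 7 arrays fitted it was 236.

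Cyp24a1, Aldh1a1 and Apob had the largest rises among the genes that passed both fits. Cyp24a1, which inactivates vitamin D, read 8.34, 9.67 and 7.60 at 4 weeks and 14.51, 12.21, 15.19 and 14.23 at 24 weeks. All 4 older arrays lay above all 3 younger ones, and the rise was 5.50 ± 0.89 (adjusted p = 0.000618). Replicate 3 alone stood 6.65 above the 4 week mean (adjusted p = 0.0202). Aldh1a1, which makes retinoic acid, read 7.35, 7.33 and 7.40 at 4 weeks and 11.97, 12, 12.46 and 11.41 at 24 weeks, a rise of 4.6 ± 0.47 (adjusted p = 4.81e-06). The young arrays were nearly alike and every old array was far above them. Its close relative Aldh1a7 rose by 3.85 ± 0.58 (adjusted p = 0.000267); the sequences of the pair are similar, so probes may share signal and the values are not independent. Apob, the structural protein of lipoproteins, read 8.89, 9.47 and 8.76 against 12.69, 13.95, 14.96 and 12.83 and rose by 4.57 ± 0.44 (adjusted p = 3.45e-06). Replicate 3 was its highest array.

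**Figure D1:**
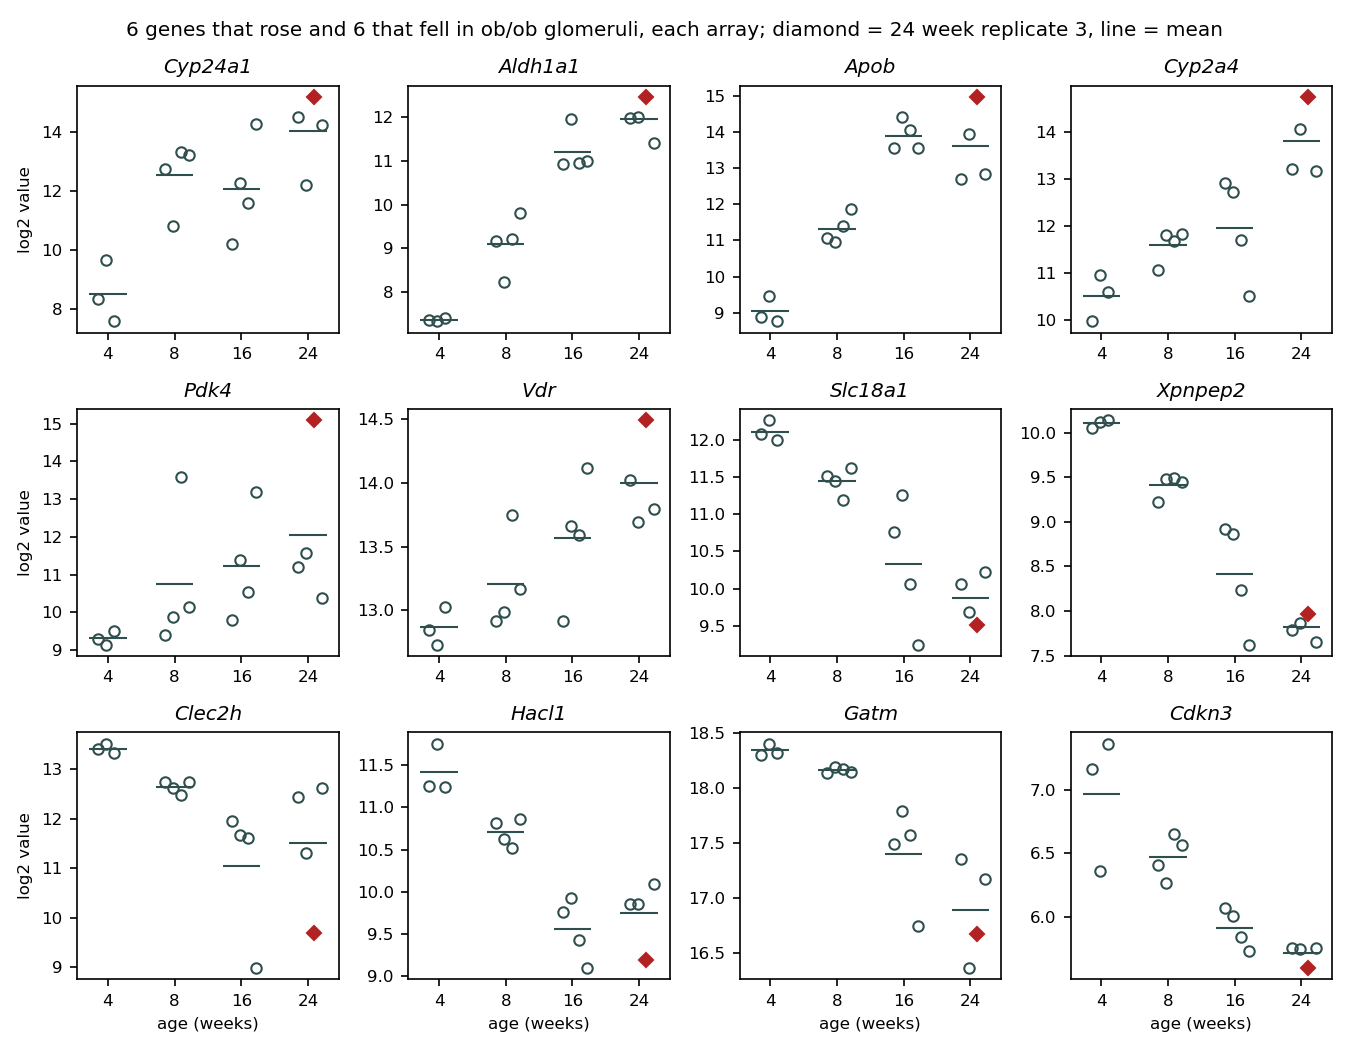
Log2 value of 12 genes (y axes, each on its own range) in every ob/ob array at 4, 8, 16 and 24 weeks (x axis); circles are arrays, lines are group means and the red diamond is 24 week replicate 3. Cyp24a1, Aldh1a1, Apob, Cyp2a4, Pdk4 and Vdr were higher at 24 than at 4 weeks and Slc18a1, Xpnpep2, Clec2h, Hacl1, Gatm and Cdkn3 lower, with no overlap between those ages. The 12 were picked for their changes, and 16.0% of all genes also did not overlap.

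Further genes that rose in both fits were Cyp2a4, Cyp4a12a, Cyp4b1, Serpina1b, Cp, Tmem252 and Ppp1r16b. Cyp2a4, a steroid hydroxylase, read 9.96, 10.96 and 10.58 at 4 weeks and 13.21, 14.06, 14.73 and 13.17 at 24 weeks, a rise of 3.29 ± 0.58 (adjusted p = 0.00126). Cyp4a12a, a fatty acid hydroxylase, rose by 2.18 ± 0.36 (adjusted p = 0.000774) and Cyp4b1, of a related family, by 1.52 ± 0.39 (adjusted p = 0.0153). In each of the 3 the ages did not overlap, and close copies of Cyp2a4 and Cyp4a12a exist, so their values are uncertain between copies. Serpina1b, a form of the protease inhibitor alpha-1-antitrypsin that also has close copies, rose by 1.89 ± 0.35 (adjusted p = 0.00185), and Cp, the copper carrier ceruloplasmin, by 1.59 ± 0.33 (adjusted p = 0.00438). Tmem252, a little-studied membrane protein, read 8.37, 7.91 and 8.67 against 8.90, 10.26, 11.63 and 8.96. Its 24 week arrays ranged widely, with replicate 3 on top, and it rose by 1.62 ± 0.44 (adjusted p = 0.0205). Ppp1r16b, a regulatory subunit of protein phosphatase of the endothelium, rose by 1.53 ± 0.28 (adjusted p = 0.00200).

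Among the genes that passed both fits, the following were chosen after their values were seen. The transcription factor Etv5, induced by growth factor signalling, read 6.67, 6.35 and 6.67 at 4 weeks and 8.21, 7.53, 7.72 and 7.76 at 24 weeks and rose by 1.24 ± 0.18 (adjusted p = 0.000219). The old arrays stood together above the young ones, replicate 3 among them. Dusp4, a phosphatase that acts on MAP kinases, rose by 0.79 ± 0.17 (adjusted p = 0.00675). Tnfsf15, a cytokine of the tumour necrosis factor family, rose by 1.26 ± 0.20 (adjusted p = 0.000618), Spns2, which exports sphingosine 1-phosphate, by 1.23 ± 0.24 (adjusted p = 0.00286) and Slc39a14, a zinc and iron importer, by 0.79 ± 0.18 (adjusted p = 0.00818). Egln3, an oxygen sensor that is itself induced by hypoxia-inducible factor, read 7.49, 7.47 and 7.72 against 8.46, 8.96, 10.05 and 8.27 and rose by 1.38 ± 0.30 (adjusted p = 0.00621). It was the one gene of the 20 in the glycolysis and hypoxia list that rose, while Pgk1, a glycolytic enzyme, was lower by -0.80 (adjusted p = 0.0167) with replicate 3 inside the 4 week values.

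Genes of calcium, phosphate and vitamin D handling changed in both directions. Of 16 measured, 3 rose and 6 fell, and the list's median difference was -0.29 (replicate 3 -0.13), beside -0.04 (replicate 3 -0.01) over all genes. The risers were Cyp24a1, the vitamin D receptor gene Vdr and the phosphate importer gene Slc20a1. Vdr read 12.85, 12.73 and 13.03 at 4 weeks and 14.02, 13.69, 14.49 and 13.80 at 24 weeks, a rise of 1.13 ± 0.23 (adjusted p = 0.00399). All 4 older arrays were above the younger ones and replicate 3 was the highest, at 1.62 above the 4 week mean (adjusted p = 0.0253). Slc20a1 rose by 0.77 ± 0.19 (adjusted p = 0.0147), with replicate 3 at 0.93 (adjusted p = 0.172).

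The fallers of that list were carriers and receptors of the tubule. Slc34a3, a sodium-phosphate cotransporter, read 12.26, 12.22 and 12.34 against 10.93, 10.50, 10.89 and 10.71 and fell by 1.51 ± 0.27 (adjusted p = 0.00122). The 24 week arrays lay close together and all were lower. Casr, the calcium-sensing receptor, read 10.21, 10.47 and 10.68 against 8.81, 9.13, 9.07 and 8.91 and fell by 1.47 ± 0.37 (adjusted p = 0.0136), again with no overlap. Pth1r, the parathyroid hormone receptor, fell by 0.85 ± 0.19 (adjusted p = 0.00675), Kl (klotho, the partner of the FGF23 receptor) by 0.87 ± 0.23 (adjusted p = 0.0189) and S100g, a calcium-binding protein, by 1.06 ± 0.34 (adjusted p = 0.0454). In S100g replicate 3, at 14.40, lay inside the 4 week values. Slc34a1, the main phosphate cotransporter of the proximal tubule, read 19.42 to 19.50 at 4 weeks and 19.02 to 19.11 at 24 weeks, near the top of the scale, and was lower by -0.37 (adjusted p = 0.0149), but by cyclic loess its difference was 0.08, not past the threshold. By cyclic loess 2 of the 16 fell and 3 rose. Cyp27b1, which makes active vitamin D, read 10.66, 12.12 and 11.96 against 8.66, 10.12, 8.40 and 9.88. Its older arrays were all lower, with a wide spread, and its difference of -2.32 ± 0.86 did not pass (adjusted p = 0.0803). The count of 6 falls became 2 without 4 week replicate 2 and 1 with the separation as a covariate.

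**Figure D2:**
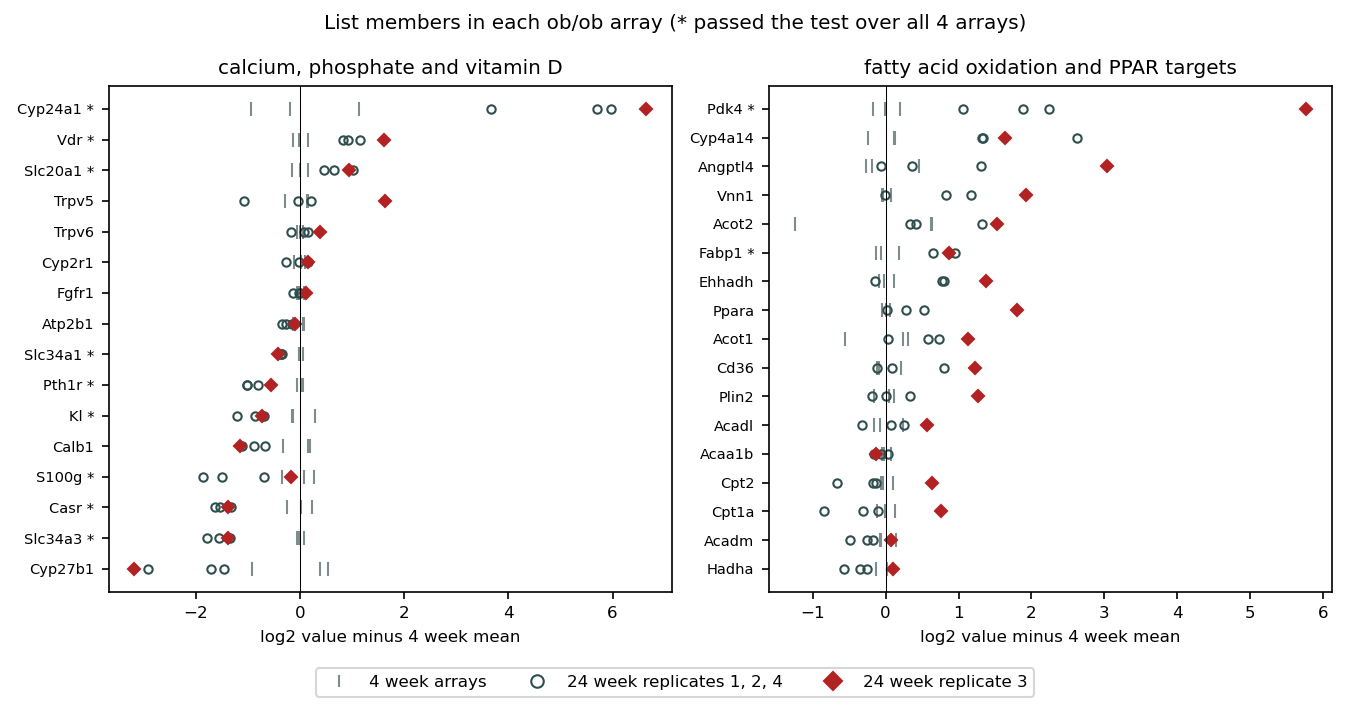
Log2 value minus the 4 week mean (x axis) of each measured gene (y axis) of the calcium, phosphate and vitamin D list (left) and the fatty acid oxidation and PPAR target list (right); grey ticks are the 3 arrays at 4 weeks, circles 24 week replicates 1, 2 and 4, and red diamonds 24 week replicate 3. Cyp24a1 and Vdr stand to the right in all 4 arrays, and replicate 3 is the array farthest right for Pdk4, Angptl4 and Ppara.

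Many fatty acid oxidation genes stood highest in replicate 3. Pdk4, a kinase that turns cells from glucose towards fat as fuel, read 9.31, 9.14 and 9.51 at 4 weeks and 11.21, 11.56, 15.09 and 10.38 at 24 weeks. The older arrays were all higher, replicate 3 by far the most, and the rise was 2.74 ± 0.85 (adjusted p = 0.0376; replicate 3 at 5.77 above the 4 week mean, adjusted p = 0.00928). Of the 17 genes on the fatty acid oxidation and PPAR list 2 rose, Pdk4 and Fabp1, a fatty acid binding protein (0.83 ± 0.22, adjusted p = 0.0179). The 2 became 0 without 24 week replicate 2, 4 by cyclic loess and 1 with only the 7 arrays fitted. The list's median difference was 0.62 over all 4 arrays and 1.23 in replicate 3. Ppara, the nuclear receptor that drives this programme, read 10.42, 10.48 and 10.37 against 10.70, 10.96, 12.23 and 10.45. It passed with replicate 3 alone (1.80, adjusted p = 0.00785) and not over all 4 arrays (0.66, adjusted p = 0.136), where replicate 4 lay among the 4 week values. Cyp4a14, a target of this receptor, read 14.78, 14.40 and 14.76 against 15.97, 17.27, 16.28 and 15.99. It did not overlap between the ages, as was so in 16.0% of all genes, and its difference of 1.73 ± 0.60 did not pass (adjusted p = 0.0594).

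Among the 24 week arrays replicate 3 also stood apart in early response and inflammatory genes. The mean of 18 immediate early genes was 7.33, 7.34 and 7.53 at 4 weeks and 7.19, 7.19, 7.96 and 7.08 at 24 weeks. Jun, of the AP-1 transcription factor, read 8.98, 8.57, 10.94 and 8.37 at 24 weeks against 8.72, 9.04 and 9.38 at 4 weeks. Replicate 3 was alone above the 4 week values, and Jun passed with that array alone (adjusted p = 0.00866) and not over all 4 (0.17, adjusted p = 0.821). Replicate 3 was also the highest array for the matricellular genes Ccn1 and Ccn2, the adhesion gene Icam1, the chemokine gene Cxcl1 and Tnfaip3, an inhibitor of NF-kB signalling, though 1 or 2 other 24 week arrays also lay above the 4 week values. These 5 passed with replicate 3 alone and not over all 4 arrays (adjusted p = 0.0122 to 0.0416 in replicate 3 and 0.0689 to 0.871 over all 4 arrays). Klf10, an early gene induced by TGF-beta, passed both fits with values of 7.17, 7.04 and 7.39 against 8.14, 7.95, 9.49 and 7.67, a rise of 1.12 ± 0.27 (adjusted p = 0.0113). Replicate 3 was also the highest array for Egln3 and Tmem252, and the part of that one animal in these rises was not tested. The 16 week ob/ob arrays, none of low separation, were also higher than the 4 week arrays in these genes. Their differences were 0.88 for Jun, 1.67 for Ccn1, 2.17 for Ccn2, 0.98 for Icam1, 0.61 for Cxcl1, 0.62 for Tnfaip3 and 1.03 for Klf10. The immediate early mean was 7.53 to 7.91 at 16 weeks.

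Xpnpep2, Slc18a1, Clec2h, Slc22a29, Hacl1 and Gatm were among the larger falls that passed both fits. Xpnpep2, an aminopeptidase of the brush border, read 10.06, 10.13 and 10.14 at 4 weeks and 7.78, 7.87, 7.97 and 7.66 at 24 weeks and fell by 2.29 ± 0.26 (adjusted p = 3.28e-05). Both ages were tight and far apart. Slc18a1, a monoamine carrier of secretory vesicles, read 12.07, 12.26 and 11.99 against 10.07, 9.69, 9.52 and 10.22 and fell by 2.24 ± 0.36 (adjusted p = 0.000618). Gatm, the first enzyme of creatine synthesis, read 18.30, 18.40 and 18.32 against 17.36, 16.37, 16.68 and 17.17 and fell by 1.45 ± 0.19 (adjusted p = 9.37e-05). In both genes all older arrays were lower. Hacl1, a peroxisomal enzyme that shortens branched fatty acids, fell by 1.66 ± 0.25 (adjusted p = 0.000267; replicate 3 at -2.22).

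Other falls that passed both fits were Slc22a29 and Slc22a27, of the organic anion carrier family, Clec2h, a C-type lectin, and Lctl, a klotho-related protein. Clec2h read 13.41, 13.52 and 13.32 against 12.43, 11.32, 9.69 and 12.62. Its 4 week arrays were alike while the 24 week arrays spread widely with replicate 3 lowest, and it fell by 1.90 ± 0.57 (adjusted p = 0.0322). Slc22a29 fell by 1.75 ± 0.43 (adjusted p = 0.0127) and Slc22a27 by 1.44 ± 0.36 (adjusted p = 0.0130), 2 close copies that probes may not tell apart. Lctl read 8.34, 8.19 and 8.22 against 7.27, 6.95, 6.60 and 7.26 and fell by 1.23 ± 0.15 (adjusted p = 6.99e-05). Proz (protein Z of coagulation) fell by 1.17 ± 0.20, Snap91, of clathrin-coated vesicles, by 1.11 ± 0.18 and Afm, the vitamin E carrier afamin, by 1.00 ± 0.29 (adjusted p = 0.000779, 0.000571 and 0.0283). Stab2, a scavenger receptor of sinusoidal endothelium, and Car12, a carbonic anhydrase of the tubule, both chosen after their values were seen, fell by 0.71 ± 0.11 and 0.85 ± 0.18 (adjusted p = 0.000435 and 0.00517).

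Most genes of cell division fell together. Of 23 measured cell cycle genes 16 fell and 7 did not pass, and replicate 3 lay below all 4 week values in each of the 16. Among the 7, replicate 3 stood above the 4 week mean for Pcna (0.23), Mcm3 (0.15) and Mcm2 (0.02). The other 24 week arrays were below that mean in these genes. Over all genes 5.58% fell with replicate 3 below, and 2.28% rose with replicate 3 above. The list's median difference was -0.43 over all 4 arrays and also -0.43 in replicate 3, beside -0.04 and -0.01 over all genes. Mki67, a marker of dividing cells, read 8.58, 8.24 and 9.63 at 4 weeks and 6.68, 6.80, 6.76 and 6.44 at 24 weeks and fell by 2.14 ± 0.33 (adjusted p = 0.000360). The 4 week arrays varied, with replicate 3 of that age highest, and all 24 week arrays were lower. Top2a, the topoisomerase of dividing cells, read 6.81, 6.81 and 7.16 against 5.81, 5.94, 5.93 and 5.88 and fell by 1.04 ± 0.15 (adjusted p = 0.000192). Its 4 older arrays lay within a narrow band. Kif11, a spindle motor, fell by 0.99 ± 0.14, Ccna2 (cyclin A2) by 0.97 ± 0.17, Prc1, of the central spindle, by 0.94 ± 0.13 and Mcm6, of the replication helicase, by 0.93 ± 0.21 (adjusted p = 0.000192 to 0.00729). None of the 16 passed with replicate 3 alone (adjusted p = 0.0509 for Prc1, 0.0543 for Top2a, 0.0778 for Mki67), where 15 of the 23 had an unadjusted limma p under 0.05 in both fits. The 16 became 9 without 4 week replicate 3, 6 with only the 7 arrays fitted, 11 with the separation as covariate and 17 by cyclic loess.

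A related set of genes passed both fits. Cdkn3, a phosphatase that acts on cyclin-dependent kinases, read 7.17, 6.36 and 7.37 against 5.76, 5.74, 5.60 and 5.75 and fell by 1.26 ± 0.17 (adjusted p = 0.000165). Replicate 3 was the lowest and the other older arrays lay just above it. Chosen after their values were seen, Knl1 (kinetochore) fell by 0.80 ± 0.12, Ncapg2 (condensin II) by 0.63 ± 0.08, Rbl1 (the retinoblastoma relative p107) by 0.77 ± 0.10, Depdc1a, a mitotic gene, by 0.72 ± 0.12 and Ezh2, the H3K27 methyltransferase, by 0.46 ± 0.08. Tet1, which oxidises methylated cytosine, fell by 0.73 ± 0.10. The adjusted p of these 6 genes lay between 7.13e-05 and 0.00153. Ezh2 is also on a list of 13 growth genes of young animals, of which 3 fell, with the imprinted genes Mest (-1.29 ± 0.24) and Grb10 (-0.44 ± 0.12, replicate 3 inside the 4 week values).

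The 250 bases before the start of 3 of these genes, from RefSeq (GRCm38.p6), show the elements often found in promoters of cell division genes: the CCAAT box, bound by NF-Y, and TTTGAA, the core of the cell cycle homology region. Both were searched on both strands (ATTGG and TTCAAA on the other), and matches stand in capitals. Mki67 (chr7:135716380-135716629, minus strand) has 3 CCAAT boxes and 2 TTTGAA, Top2a (chr11:99024190-99024439, minus strand) 6 and 2, and Cdkn3 (chr14:46760291-46760540, plus strand) 3 and 1.
Mki67: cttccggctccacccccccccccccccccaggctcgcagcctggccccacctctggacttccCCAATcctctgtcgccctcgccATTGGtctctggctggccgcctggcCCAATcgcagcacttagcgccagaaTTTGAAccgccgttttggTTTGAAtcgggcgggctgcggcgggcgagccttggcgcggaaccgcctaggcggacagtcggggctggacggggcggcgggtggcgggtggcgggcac
Top2a: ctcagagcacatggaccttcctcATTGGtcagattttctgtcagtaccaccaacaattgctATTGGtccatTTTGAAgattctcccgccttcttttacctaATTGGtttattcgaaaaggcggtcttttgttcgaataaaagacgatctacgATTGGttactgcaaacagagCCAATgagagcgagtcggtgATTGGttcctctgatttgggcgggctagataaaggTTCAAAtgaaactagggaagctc
Cdkn3: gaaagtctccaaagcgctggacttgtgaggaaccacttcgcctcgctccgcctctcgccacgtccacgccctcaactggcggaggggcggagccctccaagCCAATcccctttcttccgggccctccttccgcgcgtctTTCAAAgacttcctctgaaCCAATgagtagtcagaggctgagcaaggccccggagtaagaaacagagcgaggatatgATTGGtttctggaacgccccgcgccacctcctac
Of the 16 genes of the list that fell, 15 have such a sequence in the RefSeq table used; 14 of the 15 hold CCAAT (93.3%), 6 hold TTTGAA (40.0%) and 6 hold both. Over all 27025 genes with a window the shares were 34.5%, 16.3% and 5.73% for both. Cdkn3, Knl1, Ncapg2, Depdc1a, Rbl1 and Ezh2, 6 genes lower in both fits that were picked by hand for this count, held fewer CCAAT. Tet1, also lower in both fits, was left out, so the 6 are not every such gene of division and chromatin. Of these 6, 3 held CCAAT (50.0%), 3 held TTTGAA (50.0%) and 2 held both (33.3%), and Knl1 and Rbl1 held neither. The 3 genes printed above each hold both elements. The division genes were on the list for their function and no binding was measured, so the matches are a description of these letters.

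**Figure D3:**
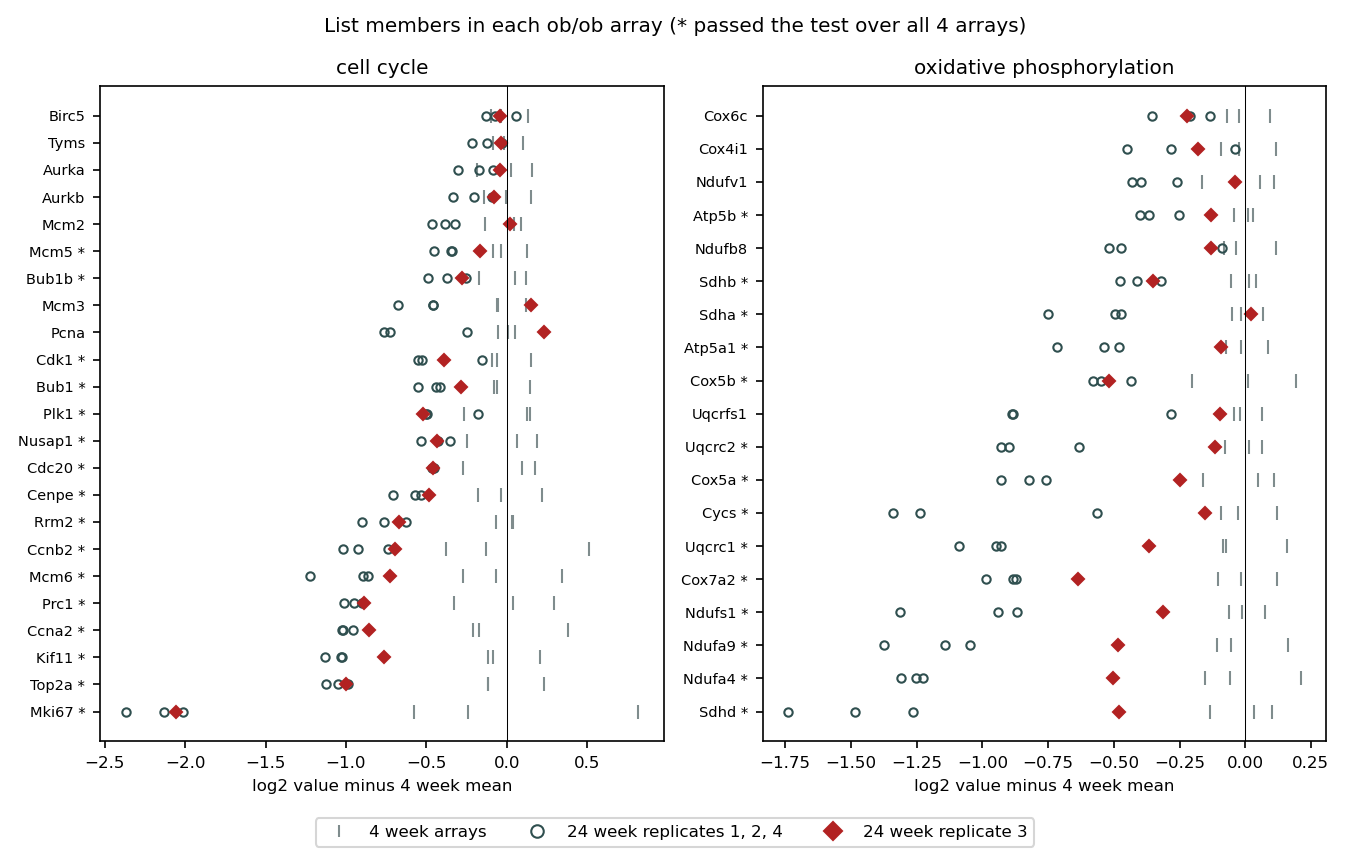
Log2 value minus the 4 week mean (x axis) of each measured gene (y axis) of the cell cycle list (left) and the oxidative phosphorylation list (right); grey ticks are 4 week arrays, circles 24 week replicates 1, 2 and 4, and red diamonds 24 week replicate 3. In the cell cycle list replicate 3 lies among or near the other 24 week arrays for most genes (list median -0.43). For Pcna, Mcm3 and Mcm2, which did not pass, it lies above the 4 week mean and the other 24 week arrays below. In the oxidative phosphorylation list replicate 3 lies nearer to the 4 week arrays (-0.22 against -0.54 over all 4).

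Subunits of the respiratory chain fell in replicates 1, 2 and 4 more than in replicate 3. Of 19 measured genes 14 fell, and in 13 of these replicate 3 was below all 4 week values (7.65% and 5.58% over all genes). The median difference was -0.54 over all 4 arrays and -0.22 in replicate 3. Sdhd, of complex II, read 14.08, 13.91 and 14.15 against 12.78, 12.31, 13.57 and 12.56 and fell by 1.24 ± 0.28 (adjusted p = 0.00729). Replicate 3 lay between the ages, 0.48 below the 4 week mean (adjusted p = 0.729). Ndufa4 fell by 1.07 ± 0.21, Ndufa9 of complex I by 1.01 ± 0.19 and Cox7a2 of complex IV by 0.84 ± 0.14 (adjusted p = 0.000564; replicate 3 at -0.64, adjusted p = 0.198). None of the 19 passed with replicate 3 alone, where 2 had an unadjusted limma p under 0.05 in both fits. The 14 became 6 by cyclic loess, 3 with the separation as covariate, 8 with the proximal tubule mean as covariate, 5 without 4 week replicate 3 and 1 with only the 7 arrays fitted. The exon-intron separation, low in replicates 1, 2 and 4, moved with this fall, and its part was not tested beyond the covariate. Of the 6025 genes brightest by the mean of both ages, 1166 were lower and 168 higher, with a median of -0.27 and -0.07 in replicate 3.

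Some cholesterol synthesis genes fell and some fatty acid synthesis genes rose. Of 14 lipid and sterol synthesis genes 3 fell and 2 rose, with a median of -0.44 (replicate 3 -0.37). Cyp51, the sterol demethylase, read 10.04, 9.72 and 9.57 against 8.62, 8.51, 8.37 and 8.74 and fell by 1.22 ± 0.23 (adjusted p = 0.00214). The ages were clearly apart in every array, and replicate 3 was the lowest (-1.41, adjusted p = 0.0809). Insig1, which holds back the sterol regulator SREBP, fell by 1.08 ± 0.29 (adjusted p = 0.0199) and Hmgcs1, an early enzyme of the pathway, by 1.10 ± 0.26 (adjusted p = 0.00911). Scd1, a fatty acid desaturase, read 9.39, 9.64 and 9.25 against 10.16, 12.37, 10.09 and 10.86 and rose by 1.44 ± 0.43 (adjusted p = 0.0325), with replicate 2 far above the others. Fasn, the fatty acid synthase, rose by 0.73 ± 0.22 (adjusted p = 0.0327). The rises of both were lost without 24 week replicate 2.

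Some carriers and secretory genes known to respond to sex hormones in the kidney rose. Of 16 on this list 5 rose and 1 fell, beside 3.42% and 7.65% of all genes. The one that fell was the polyamine enzyme gene Odc1 (-0.61, adjusted p = 0.0385). The 5 became 3 without 4 week replicate 2 and 1 with only the 7 arrays fitted, and the 1 became 0 without 24 week replicate 1. Slco1a6, an organic anion carrier, read 11.97, 11.98 and 11.15 against 13.97, 14.45, 13.93 and 14.06 and rose by 2.40 ± 0.48 (adjusted p = 0.00316). The 24 week arrays were alike and all higher, replicate 3 included (2.23, adjusted p = 0.225). Pigr, which carries IgA across epithelium, rose by 1.94 ± 0.36 (adjusted p = 0.00186) and Slco1a1 by 0.55 (adjusted p = 0.0200). Slc7a12, an amino acid carrier, read 9.58, 10.56 and 8.67 against 13.08, 13.83, 10.35 and 14.18. Replicate 3 was the exception there, inside the 4 week values, though the gene passed over all 4 arrays (3.26 ± 0.74, adjusted p = 0.00798). Kap, an androgen-responsive gene of the proximal tubule, read 15.70, 15.04 and 14.67 against 10.50, 14.09, 12.43 and 13.61. All older arrays were lower but they spread widely, and the difference of -2.48 did not pass (adjusted p = 0.0905).

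Of the 22 proximal tubule genes 5 were lower and 1 higher (7.65% and 3.42% over all genes), with a median of -0.22 (replicate 3 -0.21). Beside Gatm and Slc34a1 these were the lactate carrier gene Slc5a12 (-1.0 ± 0.24, adjusted p = 0.0107), Acsm2, of fatty acid activation (-0.89 ± 0.15, adjusted p = 0.000827), and Slc5a2, the glucose carrier SGLT2 (18.03, 18.01 and 18.08 against 17.29, 16.93, 17.51 and 17.01; -0.85 ± 0.17, adjusted p = 0.00395). In all 5 the 24 week arrays lay below the 4 week arrays, and replicate 3 passed by itself in Gatm. The list is bright, and of the 6025 brightest genes 1166 were lower and 168 higher, with a median of -0.27 (replicate 3 -0.07). By cyclic loess the tubule list's median was 0.20, with 2 lower and 1 higher. The one that rose was Slc27a2, a fatty acid carrier and activating enzyme, by 0.69 (adjusted p = 0.0246). Of 20 distal nephron and collecting duct genes 1 fell, Cldn16, the magnesium channel claudin of the thick ascending limb (8.44, 8.32 and 8.45 against 6.86, 6.95, 7.03 and 6.93; -1.47 ± 0.27, adjusted p = 0.00170). Its older arrays lay close together, replicate 3 among them.

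Many antibody gene segments rose, in replicate 3 too. Of 237 V segments of antigen receptors 61 rose and 0 fell (95 higher and 2 lower at an unadjusted limma p under 0.05), with a median of 0.30 and 0.29 in replicate 3. Among all genes 3.42% were higher and 7.65% lower. The rise was in antibody genes: 35 of 96 heavy chain (Ighv) segments rose with a median of 0.60 and 23 of 68 kappa light chain (Igkv) segments with a median of 0.45, while 2 of 59 T cell receptor alpha segments rose with a median of 0.10. Ighv1-53 read 5.46, 5.44 and 5.28 at 4 weeks and 7.93, 7.17, 7.40 and 7.45 at 24 weeks, a rise of 2.09 ± 0.38 (adjusted p = 0.00153). Replicate 3 lay among the other older arrays. Igkv4-59 rose by 2.18 ± 0.42 (adjusted p = 0.00243) and Jchain, which joins IgA and IgM, by 0.62 ± 0.20 (adjusted p = 0.0450). Ighv1-7 and Ighv2-2 also passed with replicate 3 alone. V segments are near copies of each other, so 1 antibody transcript may light several probes and the 61 are not 61 separate genes. The 61 became 15 without 4 week replicate 3, 16 with only the 7 arrays fitted, 21 with the separation as covariate and 48 by cyclic loess. In wild type 32 of the 237 rose over the same ages, with a median of 0.22.

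**Figure D4:**
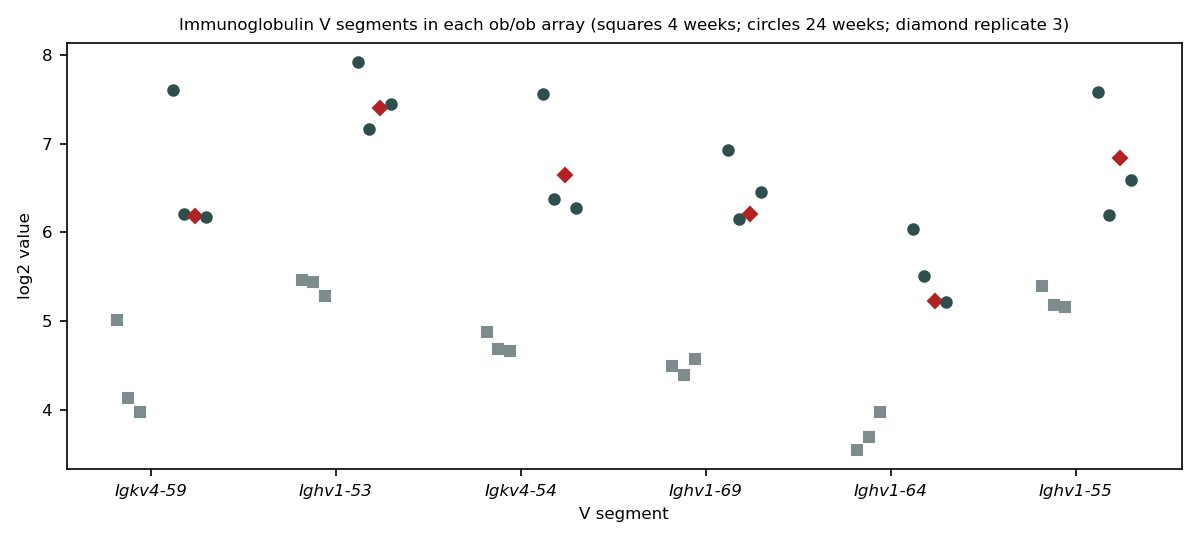
Log2 value (y axis) of the 6 immunoglobulin V segments with the largest rise (x axis) in each ob/ob array; grey squares are 4 weeks, circles 24 week replicates 1, 2 and 4, and the red diamond 24 week replicate 3. In each of the 6 all 24 week arrays lie above all 4 week arrays. The 6 were picked for the size of their rise, and 16.0% of all genes also do not overlap between the ages.

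A few macrophage genes rose, most of all in replicate 2. Of 19 measured 3 rose and 0 fell (7 higher and 0 lower at an unadjusted limma p under 0.05), where 3.42% of all genes were higher. C1qb, a complement gene of macrophages, read 6.24, 5.93 and 5.63 against 6.46, 8.82, 6.73 and 6.90 and rose by 1.30 ± 0.35 (adjusted p = 0.0196). Csf1r, the receptor of macrophage growth factor, read 6.85, 7.04 and 6.77 against 7.56, 8.21, 7.44 and 7.74 and rose by 0.85 ± 0.17 (adjusted p = 0.00399). In both genes every older array was higher and replicate 2 the highest. Aif1, a cytoskeletal gene of macrophages, rose by 0.50 ± 0.13. The mean of the list was 7.32 in replicate 2 and 6.08, 6.26 and 6.16 in the other 24 week arrays, against 5.87 to 6.07 at 4 weeks, and without replicate 2 the count was 1. H2-Aa, of MHC class II, rose by 0.76 ± 0.24 (adjusted p = 0.0379), 1 of 13 antigen presentation genes.

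Urothelial genes rose in replicates 2 and 4. Uroplakins coat the epithelium of the renal pelvis and bladder and are not expected in glomeruli. Upk1b read 6.93, 6.71 and 6.54 at 4 weeks and 7.77, 11.04, 7.28 and 11.57 at 24 weeks and rose by 2.69 ± 0.64 (adjusted p = 0.0101). Replicates 2 and 4 were far above all others, and replicates 1 and 3 a little above the 4 week values. Psca rose by 2.22 ± 0.46, Upk1a by 1.85 ± 0.46, Upk2 by 1.36 ± 0.34 and Upk3a by 0.70 ± 0.20, so that 5 of 7 rose, beside 3.42% of all genes. The list's mean was 7.97 and 8.06 in replicates 2 and 4, 6.13 and 6.18 in replicates 1 and 3, and 5.67 to 5.89 at 4 weeks. Its median difference was 1.36 over all 4 arrays and 0.27 in replicate 3. The 5 became 1 without 4 week replicate 3 and 0 with the separation as covariate.

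Marker lists of the glomerular cells themselves had low means in replicates 2 and 4 and not in replicate 3. The mean of 26 podocyte genes was 10.09, 10.26 and 10.42 at 4 weeks and 10.20, 8.80, 10.74 and 8.82 at 24 weeks. Replicate 3 was above and replicate 1 among the 4 week arrays. The 16 week ob/ob arrays also had podocyte means above them (10.68 to 11.34). The list's median difference from 4 weeks was 0.74 at 16 weeks and -0.55 over all 4 arrays at 24 weeks. Nphs1 (nephrin, of the slit diaphragm) read 9.77, 9.70 and 10.40 against 10.37, 7.30, 10.05 and 7.25, a difference of -1.21 ± 0.60 (adjusted p = 0.197). Wt1, a podocyte transcription factor, read 8.11, 8.26 and 8.81 against 8.43, 6.23, 8.65 and 6.64, a difference of -0.91 ± 0.48 (adjusted p = 0.233). In both the ages overlapped. Of the 26 genes 2 fell, a share near the 7.65% of all genes that were lower. They were Enpep, an aminopeptidase that degrades angiotensin II (-1.28 ± 0.35, adjusted p = 0.0192), and Npnt, nephronectin of the basement membrane (-1.20 ± 0.34, adjusted p = 0.0272). In both replicate 3 was slightly above the 4 week mean. The podocyte count rose to 12 without 24 week replicate 3 and was 0 by cyclic loess and 0 without 24 week replicate 2.

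The endothelial and mesangial lists also had their lowest means in replicates 2 and 4 and their highest in replicate 3, with replicate 1 a little below the 4 week arrays. The mean of 21 endothelial genes was 10.10 to 10.43 at 4 weeks and 9.99, 9.10, 10.82 and 8.81 at 24 weeks, and that of 16 mesangial and smooth muscle genes 9.19 to 9.48 and 8.86, 8.13, 9.78 and 7.98. At 16 weeks in ob/ob these means were 10.85 to 11.79 and 9.86 to 10.87, above the 4 week arrays in both lists. Lpl (lipoprotein lipase), 1 of 21, fell by 0.91 ± 0.28 (adjusted p = 0.0358) and Agtr1a (an angiotensin II receptor), 1 of 16, by 0.61 ± 0.20 (adjusted p = 0.0462). Both had no overlap between the ages, as was so in 16.0% of all genes. Neither count was above the 7.65% of all genes that were lower. Without 24 week replicate 3 the counts were 9 of 21 and 10 of 16, and both were 0 without 24 week replicate 1, by cyclic loess and with the separation as covariate. The urothelial list was high in the same replicates 2 and 4 in which these 3 lists were low, and the part of tissue make-up or array quality in either was not tested.

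**Figure D5:**
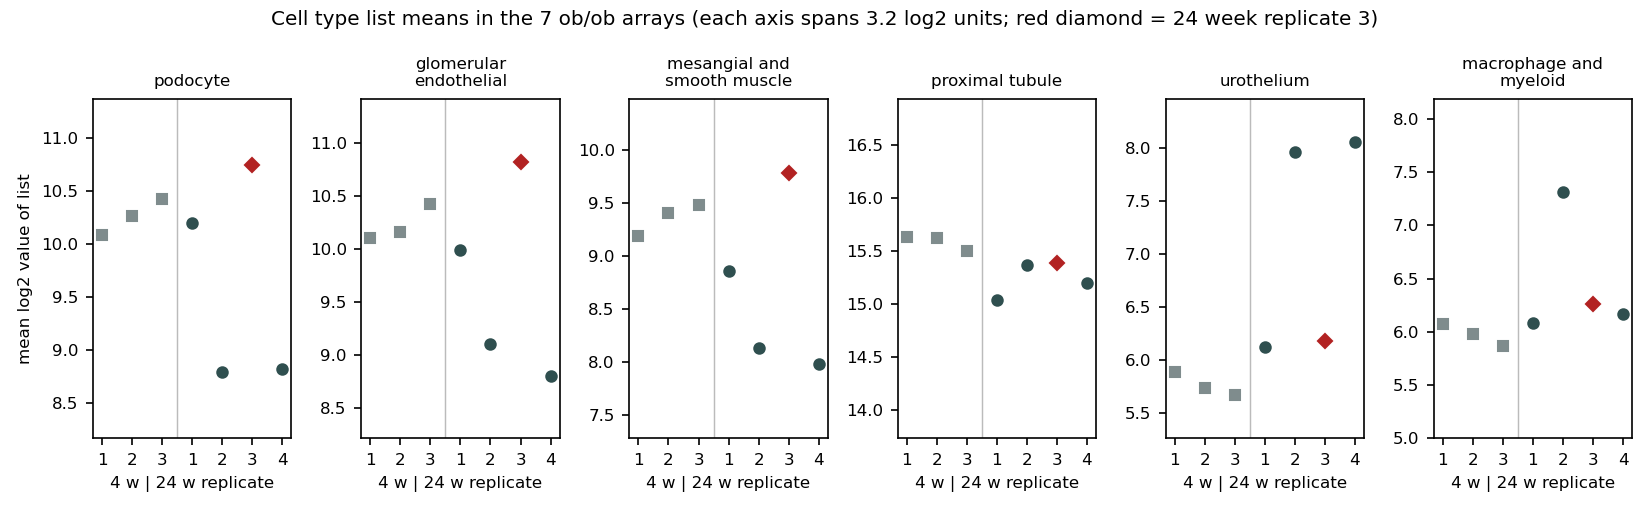
Mean log2 value (y axes, each spanning 3.2 units) of 6 cell type lists in the 3 arrays at 4 weeks (squares) and the 4 at 24 weeks (circles; red diamond replicate 3), by replicate number (x axis). Podocyte, endothelial and mesangial means are lowest in replicates 2 and 4, where the urothelial mean is highest, and replicate 3 lies above the 4 week arrays in the first 3.

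Some matrix genes fell over all 4 arrays and none on either list rose (limma), where 7.65% of all genes were lower and 3.42% higher. Of 18 basement membrane genes 4 fell and 0 rose (7 lower and 2 higher at an unadjusted p under 0.05): Lamc1, a laminin chain (10.06, 10.33 and 10.39 against 9.33, 9.01, 9.71 and 8.60; -1.10 ± 0.20, adjusted p = 0.00137), Col4a5 of the mature collagen IV network (-0.65 ± 0.10, adjusted p = 0.000401), Lama4 (-0.41 ± 0.10) and Nid1. Lamc1 did not overlap between the ages, and replicate 3 was its highest older array. Col4a5 read 7.97, 8.16 and 8.14 against 7.62, 7.34, 7.44 and 7.34, with replicate 3 in the middle of the older arrays (-0.65, adjusted p = 0.0521). Col4a1 (-0.89 ± 0.35, adjusted p = 0.104) and Col4a3 (-0.08 ± 0.27, adjusted p = 0.890) did not pass. Of 24 fibrosis and interstitial matrix genes 4 fell and 0 rose (9 lower and 0 higher at an unadjusted limma p under 0.05): the fibrillar collagens Col3a1 (-0.65 ± 0.12, adjusted p = 0.00183) and Col1a2 (-0.67 ± 0.15, adjusted p = 0.00671), the gelatinase Mmp2 (-1.31 ± 0.38) and Sparc. In Col3a1 and Col1a2 all older arrays were lower, replicate 3 included, while Col1a1 differed by -0.24 (adjusted p = 0.365). The fibrosis list's median was -0.18 over all 4 arrays, 0.14 in replicate 3 and 0.37 in the 16 week ob/ob arrays. Its members Ccn1 and Ccn2 stood 2.2 and 2.68 above the 4 week mean in replicate 3. Counts without 24 week replicate 2 were 2 for basement membrane, and without 4 week replicate 2 they were 1 for fibrosis.

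Some large changes were absent from replicate 3. Sparc, a matrix-binding protein, read 15.03, 15.09 and 15.21 against 13.69, 12.85, 15.26 and 12.58, with a difference of -1.51 ± 0.41 (adjusted p = 0.0192). Replicate 3 was above every 4 week array. Tm4sf1, a membrane protein of endothelium, read 10.80, 10.83 and 11.04 against 9.20, 8.18, 11.46 and 7.78 (-1.73 ± 0.51, adjusted p = 0.0309), Calcrl, the adrenomedullin receptor, differed by -1.35, Ifitm2, of the interferon-induced transmembrane family, by -1.37 and Nid1 (nidogen, a linker of the basement membrane) by -1.33. On the other side Gsdmc3, of the pore-forming gasdermins, read 6.18, 6.14 and 5.77 against 7.02, 9.0, 6.16 and 9.54 (1.90 ± 0.48, adjusted p = 0.0139), with replicate 3 again among the young arrays. Bend5, a DNA-binding protein, differed by 1.52, Serpina1f, of the alpha-1-antitrypsin family, by 1.78, Slc38a3, a glutamine carrier, by 1.47 and Alas2, of heme synthesis in red cells and 1 of 3 measured erythroid genes, by 1.25. In the parietal epithelial list 2 of 13 were higher and 1 lower; Pax2, a developmental transcription factor, differed by 0.90 with replicate 3 at 7.82, inside the 4 week values, while Krt19, a keratin, differed by 0.43 with replicate 1 as the low array, and Prom1 by -0.84 with no overlap.

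The remaining lists had few changes. Of 18 oxidative stress genes 3 were lower, Gsta4 (-1.11), the NADPH oxidase gene Nox4 (-1.01) and Gpx3 (-0.21, and 0.24 by cyclic loess, not past the threshold); by cyclic loess the count was 0. Of 18 insulin, IGF and leptin signalling genes 2 were higher, Igf1r, the IGF1 receptor (0.55), and Lep (0.51), and 2 lower, Grb10 and Igfbp7 (-0.29, and 0.16 by cyclic loess, not past the threshold). Lep, leptin itself, read 5.17, 5.22 and 4.88 against 5.56, 5.97, 5.40 and 5.45, all near the level of intron controls. Its receptor gene Lepr differed by -0.04 (adjusted p = 0.921). Of 8 adipocyte genes 2 were higher, Lep and the lipid droplet gene Cidec (0.39). Myc, a growth transcription factor, was the 1 of 18 immediate early genes that passed over all 4 arrays (0.47, adjusted p = 0.0124), Cfp (properdin, 0.40) the 1 of 11 complement genes with replicate 3 inside the 4 week values, Jchain the 1 of 15 lymphocyte and plasma cell genes, Slc5a2 the 1 of 12 sugar transport and gluconeogenesis genes, and Enpep and Agtr1a the 2 of 15 renin-angiotensin genes.

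In 5 lists no gene passed by limma over all 4 arrays. These were kidney injury markers (10 genes, 3 higher at an unadjusted p under 0.05), inflammatory cytokine and adhesion genes (14 genes, 4 higher), the unfolded protein response (16 genes, 2 lower), interferon response (15 genes, 0) and the circadian clock (15 genes, 0). The median difference of the injury markers was 0.41, and 0.89 in replicate 3. Havcr1 (KIM-1, of injured tubule) read 5.98, 5.84 and 5.82 against 6.32, 6.30, 6.68 and 6.26. Every older array was higher, by little, and the difference of 0.51 ± 0.43 did not pass (adjusted p = 0.482).

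Wild-type females aged over the same span gave fewer calls. In wild type 269 genes passed (1.12%), 167 higher (0.693%) and 102 lower (0.423%), from 4 arrays at 24 weeks whose separation was 0.832 to 0.886. Apob rose by 4.09, Aldh1a1 by 3.10 and Cyp2a4 by 3.75 in wild type (adjusted p = 3.27e-05, 0.000485 and 0.000714). Of the cell cycle genes 14 of 23 fell in wild type too, with a median of -0.53, and Mki67 fell by 2.51. Cyp24a1 differed by 2.67 in wild type (adjusted p = 0.204), Pdk4 by -0.08 (adjusted p = 0.993), Vdr by -0.16 (adjusted p = 0.899) and Gatm by -0.26 (adjusted p = 0.694). Whether these 4 changed differently in ob/ob was tested directly and did not pass (adjusted p = 0.279, 0.254, 0.117 and 0.0929).

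The test of a different change by genotype called 1 of 24099 genes (0.00415%), with 3757 at an unadjusted p under 0.05 (15.6%). It was Lgr5, a receptor of Wnt-amplifying R-spondins known from stem cells. In ob/ob it read 5.90, 5.98 and 5.99 at 4 weeks and 5.85, 5.77, 6.07 and 5.91 at 24 weeks, with overlap (difference -0.06). In wild type it went from 5.91 to 5.99 at 4 weeks up to 6.57 to 6.76 at 24 weeks, a rise of 0.67. The difference of the changes was -0.73 (adjusted p = 0.0265), all of it between values near the intron controls, and it did not pass without any 1 of 24 week replicates 1, 2 and 4 or of 4 week replicates 2 and 3. Next in order, and not past the threshold, were Gramd1b, a sterol carrier (rise of 1.56 ± 0.24 in ob/ob, -0.37 in wild type), Akr1c20, a steroid dehydrogenase (-0.09 and 2.00), Luzp2 (0.23 and 1.64), Txndc5, a chaperone of the endoplasmic reticulum (fall of 0.87 ± 0.12 in ob/ob, -0.03 in wild type), and Selenom (-0.10 and 0.61), each with an adjusted p of 0.0645. Gramd1b read 10.91, 10.93 and 11.12 against 12.59, 13.14, 11.63 and 12.83, with every older array higher and replicate 3 the least so. Without 24 week replicate 3 the test called 2713 genes.

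The 8 and 16 week ob/ob arrays were compared with the same 4 week arrays, so these differences are not independent. Aldh1a1 differed by 1.75 at 8, 3.85 at 16 and 4.6 at 24 weeks, Apob by 2.28, 4.85 and 4.57, Xpnpep2 by -0.70, -1.70 and -2.29 and Mki67 by -0.47, -1.76 and -2.14. Cyp24a1 differed by 4.00, 3.56 and 5.50, so that its difference was already large at 8 weeks. The 8 and 16 week arrays are not among the 3 of low separation.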

How the data were processed

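RNA of 30 glomerular samples, 1 array each, was measured on Affymetrix mouse transcriptome arrays. The authors deposited log2 values made by RMA in Affymetrix Expression Console 1.4, per the submitters' processing notes. They span 2.45 to 19.93, above the limit of a 16-bit scanner, and the step that stretched them is not given in the sources used here. Of 72688 probe sets 30604 carry 1 gene symbol. A gene was read from its brightest probe set and kept at log2 5 or more in at least 3 arrays, which left 24099 genes. Of these, 398 share identical values with another gene.

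Groups were taken from the sample labels, which describe separate animals. A mean was fitted per group over all 30 arrays with limma 3.58.1 (R 4.3.3), and p-values were adjusted by Benjamini-Hochberg over all genes. The fit was repeated without 24 week replicates 1, 2 and 4, and the change was compared between genotypes as an interaction. The script was tested on simulated data. The number of arrays limits the precision: the median standard error was 0.148 over all 4 arrays and 0.209 with replicate 3 alone.

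Genes were named by size: the 12 largest rises and falls in both fits (ranked by the smaller change of the fits, leaving out predicted and unnamed genes, small RNAs, pseudogenes and large tandem families), up to 4 called members of each gene list, the 10 smallest p-values of the interaction, and a few disease genes. Others were chosen after their values were seen. The comparison, the 33 lists and the rules were chosen with earlier results of these data known. Alternatives were other filters, scalings, weights, covariates, probe set rules, a replicate block and each array left out.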

Additional observations from a re-analysis of the deposited data

Results flagged for a closer look

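Of 177 groups of values checked at 24 weeks in ob/ob, 13 had 1 array far from the others by Dixon's test. Chance gives about 1 in 20 for independent groups picked without regard to their values. Many of the genes checked were named from these same values, so the 13 cannot be judged against that share. Replicate 3 was the far array in 7 of them, with a log2 value of 5.595 for Cdkn3, 13.462 for Car12 (both below the others), 15.37 for Ndufa4, 16.052 for Pgk1, 6.676 for Havcr1, 7.962 for the mean of the immediate early list (these above) and 7.824 for Pax2 (below). Replicate 2 was far from the others for Aif1 (6.243), the mean of the macrophage and myeloid list (7.319) and Gsta4 (10.498, below). Replicate 1 was the far array for Krt19 (5.777, below), Col3a1 (6.409, below) and Col4a3 (12.599, above).

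The change of Lgr5 from 4 to 24 weeks differed between the genotypes by -0.7338 in the interaction test of limma (adjusted p = 0.0265): it rose by 0.67 in wild type and differed by -0.06 in ob/ob.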

How the results depend on the processing

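The 2669 genes called over all 4 arrays became 7159 with array quality weights, 236 with only the arrays compared, 1558 with the proximal tubule mean as covariate, 592 with the separation as covariate, 392 at a difference of at least 1 and 136 without 24 week replicates 1, 2 and 4. Leaving out 1 array gave 697 to 5745. The 67 genes called in both fits became 372 with weights, 124 by cyclic loess, 23 with only the arrays compared, 143 and 169 with the tubule and separation covariates and 36 at a difference of at least 1, and 31 to 71 with 1 array left out. The 1 interaction call became 4001 with weights, 31 by cyclic loess, 0 with the tubule covariate, 0 at a difference of at least 1 and 4 without replicates 1, 2 and 4, and 0 to 2713 with 1 array left out. The interaction count stayed at 1 with only the arrays compared and with the separation covariate. In both the called difference was positive, where that of Lgr5 was negative, so the gene called was another. Filters, probe set averaging and trended or robust settings kept all 3 counts within 1.5 times.

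Replicate numbers did not pair the arrays (correlation of same-numbered deviations -0.18 to 0.03 in the ob/ob groups). With the replicate block the counts were 2201, 46 and 3.

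Without replicates 1, 2 and 4 the difference turned to -0.0203 for Alas2, 0.0613 for Calcrl, 0.13 for Enpep, 0.0206 for Gpx3, 0.0191 for Igfbp7, 0.19 for Npnt, 0.15 for Sparc and 0.57 for Tm4sf1. By cyclic loess it turned to 0.24 for Gpx3, 0.16 for Igfbp7 and 0.0769 for Slc34a1. The cause of these changes was not tested. Of 122 called genes named in the text, 18 kept their call under every alternative run, among them Cyp24a1, Aldh1a1, Apob, Vdr, Xpnpep2 and Gatm.

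Signal limits the low genes, since intron controls had medians of 5.73 to 6.79. In ob/ob these medians were 6.23, 6.18 and 6.20 at 4 weeks and 6.79, 6.68, 5.90 and 6.73 at 24 weeks. Values at or below that level are near background, such as those of Lep, Lgr5, Fabp1, Aif1, Jchain, Cidec, Slco1a1, Krt19 and the V segments. The part of the higher intron medians of replicates 1, 2 and 4 in small rises there was not tested. With 4 and 3 arrays, a gene that missed the threshold is not shown to be unchanged.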

Other observations

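Transcripts other than protein-coding genes were also measured at 4 and 24 weeks in ob/ob. Of 428 microRNA genes 55 were higher and 4 lower, where 3.42% of all genes were higher and 7.65% lower, with a median difference of 0.19 over all 4 arrays and -0.14 in replicate 3. Of 3470 pseudogenes 331 were lower and 47 higher, with a median of -0.15 and 0.01 in replicate 3. Of 15694 protein-coding genes 1422 were lower and 516 higher, with a median of -0.05. The share lower was alike in the 2 classes, and the share higher was smaller among pseudogenes. In wild type 1 microRNA gene was higher, and 11 pseudogenes were higher and 2 lower. In neither class did the median of replicate 3 lie on the side of the other arrays.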
